A study of Rattus norvegicus with 12 samples.

Results

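The genes of glycolysis and of the hypoxia response were followed in rat extraembryonic endoderm (XEN) cells, a line with features of the endoderm that lines the early yolk sac, under 2 compounds given alone or together. The members are 32 named genes for glucose uptake, the steps of glycolysis, the handling of pyruvate and lactate, oxygen sensing and targets of hypoxia signalling. They were found by gene symbol in the annotation of the array's probe sets, with older symbols updated, and 31 of the 32 were measured among 16582 genes in all. Pkm was found under its older symbol Pkm2, and Hk1 had no probe set that carried its symbol alone. The 31 genes held 336 probe sets, between 2 and 22 each, and the value of a gene on an array is the median of its probe sets.

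Every sample was total RNA of XEN cells of the Fisher strain on its own Affymetrix rat gene array, with 12 arrays in 4 groups of 3. CHIR_Forskolin cells received 3 µM CHIR99021, which inhibits the kinase GSK3 and so stabilises beta-catenin, for 2 days, with 10 µM forskolin, which activates adenylate cyclase and so raises cAMP, over the last 1 day. CHIR cells received 3 µM CHIR99021 alone for 2 days, Forskolin cells 10 µM forskolin alone for 1 day, and Control cells neither compound. All 4 groups spent their last day in medium with 0.1% serum, and the labels mention no low-oxygen culture. The labels call the 3 samples of a group parallels and do not say that they were separate cultures, so the p-values rest on a spread between samples that may be technical only. Values are log2 signals, and a difference of 1 is a doubling. As a treatment check, the beta-catenin target Axin2 averaged 8.66 in CHIR_Forskolin cells, 8.64 in CHIR cells, 5.95 in Forskolin cells and 5.75 in Control cells. The cAMP-responsive gene Crem averaged 9.90 in CHIR_Forskolin cells, 8.60 in CHIR cells, 10.18 in Forskolin cells and 8.73 in Control cells.

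The array medians lay between 7.76 and 7.86, and arrays correlated at 0.995 to 0.997 within a group and at 0.966 to 0.990 between groups. The labelled cell type was checked against markers, taking as a background reference the 95th percentile, 6.45, of the 1096 olfactory receptor genes measured. All 10 markers of extraembryonic endoderm, among them Gata4, Gata6, Sox7, Sox17, Foxa2 and Dab2, lay above this level in at least 1 group. The mean of this list lay at 12.12 to 12.21 in CHIR_Forskolin, 11.94 to 12.01 in CHIR, 12.38 to 12.42 in Forskolin and 12.24 to 12.32 in Control arrays, so the groups did not overlap. The markers did not move as one. Against Control, 6 fell in CHIR cells, most of all Dab2 (-1.07), while Pdgfra rose by 0.31 and Gata4, Foxa2 and Sparc did not pass. In CHIR_Forskolin cells 4 fell and Sox7 rose, and in Forskolin cells Sox7 alone passed, 0.73 higher. The 3 markers of pluripotent cells, the 3 of endothelium and blood and the 2 of mesoderm were all near background. Of the 4 trophoblast markers, Cdx2 was above it only with CHIR99021, and averaged 5.56 in Forskolin and 5.49 in Control cells. Hand1 barely exceeded the reference, 6.454 in full, at 6.461 in CHIR_Forskolin cells and in no other group. Of the 5 fibroblast markers, Col1a1 was above it in every group and Twist2 in all but CHIR cells. The mean of the trophoblast list was 6.28 to 6.46 in CHIR_Forskolin, 6.21 to 6.33 in CHIR, 5.99 to 6.13 in Forskolin and 5.86 to 5.99 in Control arrays. Within it Cdx2 rose by 1.98 in CHIR_Forskolin and by 2.16 in CHIR cells, while Hand1 and Elf5 passed in neither and Tfap2c fell by 0.61 in CHIR cells. Among the fibroblast markers, Thy1 rose by 0.51 in CHIR_Forskolin cells but lay below the background reference in every group. Twist2 fell by 0.25 in CHIR cells, and no other fibroblast marker passed against Control. The part of these shifts in the results below was not tested. In such bulk samples, fewer cells of a type and less RNA per cell cannot be told apart.

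Glycolysis turns glucose, taken up through the Slc2a transporters, into pyruvate, which either enters the mitochondria or is reduced to lactate and exported. Pyruvate dehydrogenase kinases hold back the mitochondrial route. Under low oxygen the hydroxylases encoded by Egln genes no longer mark HIF-1alpha for destruction, and the stabilised factor raises many glycolytic genes together with Vegfa, Bnip3, Adm and other targets. HIF-1alpha is mainly controlled as a protein, so the RNA of Hif1a does not measure its activity.

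The interaction compares forskolin's effect in the presence of CHIR99021 (CHIR_Forskolin minus CHIR) with that in its absence (Forskolin minus Control), the second subtracted from the first. Differences were tested with limma's moderated test on 4 group means over all 12 arrays, with Benjamini-Hochberg adjustment over all 16582 genes, and a gene is said to have risen or fallen where its adjusted p was under 0.05. Against Control, 17 of the 31 members passed in CHIR_Forskolin cells, 10 higher and 7 lower, while 29% of all genes passed, 14.3% higher and 14.7% lower. In CHIR cells 10 members passed, 5 higher and 5 lower, against 28.2% of all genes, 14.3% higher and 13.9% lower. In Forskolin cells 9 members passed, 6 higher and 3 lower, against 15% of all genes, 6.08% higher and 8.96% lower. These are 54.8%, 32.3% and 29.0% of the measured members. Among the 8812 genes whose highest group mean exceeded the median gene, as did that of 30 members, the shares called were 45.3% in CHIR_Forskolin, 43.9% in CHIR and 23.6% in Forskolin cells. The members' share lay below that of these brighter genes in CHIR cells and somewhat above it in the other treated cells, so the number of calls is by itself no result about the members. The count for CHIR_Forskolin was 10 where the brightest probe set stood for a gene, 11 without CHIR_Forskolin replicate 2 and also 11 without Control replicate 1. The median difference of the members was 0.04 in CHIR_Forskolin, 0.02 in CHIR and 0.04 in Forskolin cells, beside 0.01, 0.01 and -0.004 over all genes.

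The calls went in both directions, and their counts by role follow. Of the 23 measured enzymes and transporters, 4 rose and 6 fell in CHIR_Forskolin cells, 3 rose and 5 fell in CHIR cells, and 1 rose and 3 fell in Forskolin cells. Of the 8 genes of oxygen sensing and the hypoxia response, 6 rose and 1 fell in CHIR_Forskolin cells, 2 rose and none fell in CHIR cells, and 5 rose and none fell in Forskolin cells. The median difference of these 8 genes was 0.30 in CHIR_Forskolin, 0.11 in CHIR and 0.37 in Forskolin cells. That of the 23 enzymes and transporters was 0.04, -0.09 and 0.00 in the same order of groups. The share called was 43.5%, 34.8% and 17.4% of the enzymes and transporters, and 87.5%, 25.0% and 62.5% of the 8 genes. Of all genes 29%, 28.2% and 15% passed, and of the brighter ones 45.3%, 43.9% and 23.6%. These shares also stand beside the counts by role below. The enzymes and transporters passed no more often than the brighter genes. The role groups are small, so their shares have little precision.

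**Figure D1:**
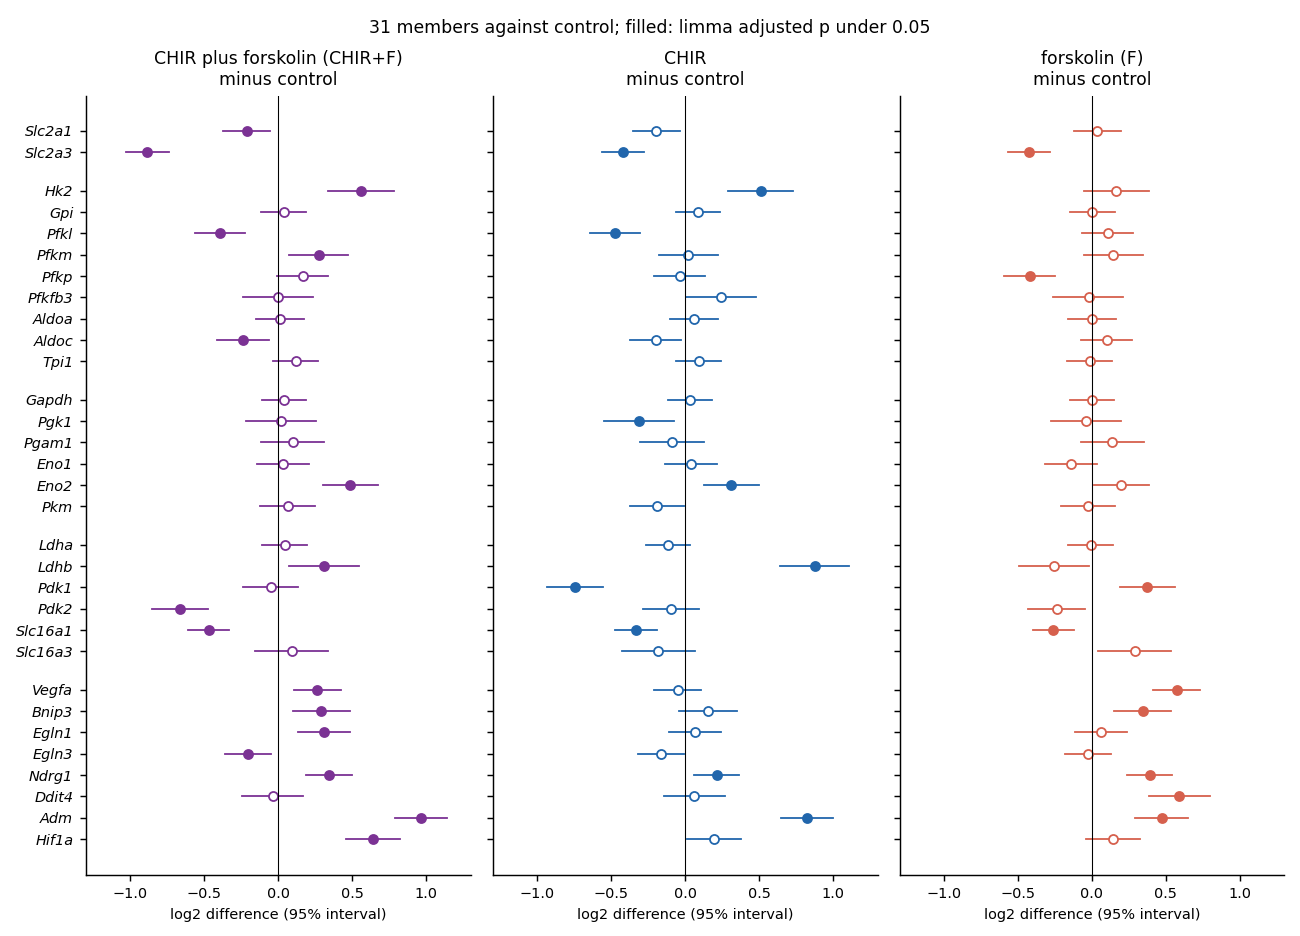
Log2 difference from Control (horizontal axis, with 95% intervals) of the 31 measured members in CHIR_Forskolin, CHIR and Forskolin cells, grouped from top to bottom into glucose uptake, upper glycolysis, lower glycolysis, pyruvate and lactate handling, and oxygen sensing with hypoxia response. Filled points passed an adjusted p of 0.05, and 6 of the 8 genes of the bottom block lie filled to the right of 0 in CHIR_Forskolin cells.

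Of the 2 glucose uptake genes, both fell in CHIR_Forskolin cells, and 1, Slc2a3, also fell in CHIR and in Forskolin cells. Slc2a3 encodes the high-affinity glucose transporter GLUT3. It measured 12.27, 12.27 and 12.30 in CHIR_Forskolin cells, 12.73, 12.69 and 12.80 in CHIR cells, 12.71, 12.75 and 12.73 in Forskolin cells, and 13.15, 13.17 and 13.17 in Control cells. The Control arrays lay above all others and the CHIR_Forskolin arrays below all others, while CHIR and Forskolin arrays overlapped. The difference from Control was -0.88 ± 0.07 (SE) in CHIR_Forskolin cells, a ratio of 0.542, with an adjusted p of 1.92e-07. It was -0.42 in CHIR cells (adjusted p = 0.00021) and -0.43 in Forskolin cells (adjusted p = 0.000482). The interaction was -0.04, with a 95% interval that held 0. No departure from the sum of the single effects on the log2 scale was detected. Of its 13 probe sets, 12 were lower with no overlap between arrays in each of these 3 comparisons, and 1 was higher in each. The fall in Forskolin cells was -0.21 with an adjusted p of 0.0891 when the brightest probe set alone stood for the gene.

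Slc2a1, which encodes the broadly expressed transporter GLUT1, moved less. It measured 12.97, 12.86 and 12.89 in CHIR_Forskolin cells, 13.00, 12.85 and 12.94 in CHIR cells, 13.12, 13.24 and 13.12 in Forskolin cells, and 13.14, 13.11 and 13.12 in Control cells. Arrays with CHIR99021 lay below those without it in both pairs. The difference from Control was -0.22 ± 0.07 in CHIR_Forskolin cells (adjusted p = 0.0412), -0.19 in CHIR cells (adjusted p = 0.066) and 0.04 in Forskolin cells. The call in CHIR_Forskolin cells was lost under array centring, where the difference was -0.17 with an adjusted p of 0.118, and on leaving out any of 7 arrays in turn, with adjusted p-values of 0.0505 to 0.137.

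**Figure D2:**
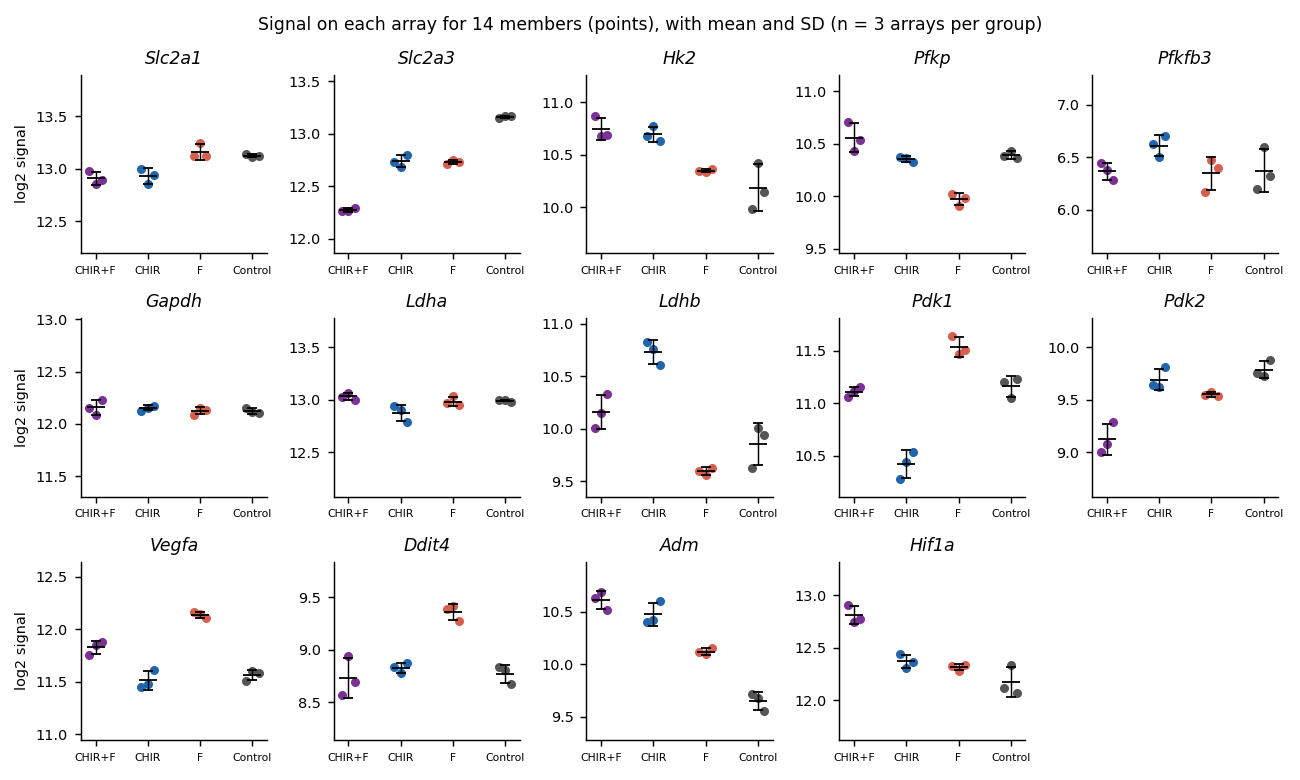
Log2 signal on each array (points) for the 14 members given array by array in the text, with the group mean and SD (n = 3 arrays per group). CHIR+F stands for CHIR_Forskolin and F for Forskolin, every panel spans the same number of log2 units, and the Slc2a3 panel shows the CHIR_Forskolin arrays at 12.27 to 12.30 below all others.

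Among the 9 measured genes of the upper, energy-consuming part of glycolysis, 2 rose and 2 fell in CHIR_Forskolin cells, 1 rose and 1 fell in CHIR cells, and 1 fell in Forskolin cells. Hk2, the inducible hexokinase that traps glucose in the cell, rose with CHIR99021. It measured 10.87, 10.68 and 10.68 in CHIR_Forskolin cells, 10.68, 10.77 and 10.63 in CHIR cells, 10.34, 10.34 and 10.37 in Forskolin cells, and 9.98, 10.42 and 10.14 in Control cells. Both groups with CHIR99021 lay above both groups without it, and Control arrays spread on either side of Forskolin arrays. The difference from Control was 0.56 ± 0.10 in CHIR_Forskolin cells (adjusted p = 0.000801) and 0.51 ± 0.10 in CHIR cells (adjusted p = 0.00162). In Forskolin cells it was 0.16, with a 95% interval of -0.06 to 0.39.

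Phosphofructokinase, the enzyme of the committed step, is built from subunits of 3 genes, and these differed in direction. Pfkl, the liver-type subunit, averaged 11.33 ± 0.04 in CHIR_Forskolin cells, 11.25 ± 0.13 in CHIR cells, 11.83 ± 0.04 in Forskolin cells and 11.72 ± 0.06 in Control cells (SD, n = 3 each). It fell by 0.39 in CHIR_Forskolin cells (adjusted p = 0.00162) and by 0.48 in CHIR cells (adjusted p = 0.000354), and all 22 of its probe sets were lower in both. Pfkm, the muscle-type subunit, was 0.27 ± 0.09 higher in CHIR_Forskolin cells (adjusted p = 0.0385), with all 22 probe sets higher. That call was lost without any of 5 single arrays, for example at 0.20 with an adjusted p of 0.168 without CHIR_Forskolin replicate 3.

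Pfkp, the platelet-type subunit, measured 10.71, 10.43 and 10.53 in CHIR_Forskolin cells, 10.37, 10.37 and 10.33 in CHIR cells, 10.02, 9.91 and 9.98 in Forskolin cells, and 10.38, 10.43 and 10.37 in Control cells. Forskolin arrays lay below all others. The fall in Forskolin cells was 0.42 ± 0.08 (adjusted p = 0.00236), whereas CHIR_Forskolin exceeded CHIR by 0.20 (adjusted p = 0.127). The difference of these effects, the interaction, was 0.62 ± 0.11 with an adjusted p of 0.00386. From the brightest probe set alone it was 0.55, with an adjusted p of 0.0967.

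Pfkfb3, whose product makes the allosteric activator of phosphofructokinase, lay close to background. It measured 6.44, 6.38 and 6.28 in CHIR_Forskolin cells, 6.63, 6.50 and 6.70 in CHIR cells, 6.17, 6.47 and 6.40 in Forskolin cells, and 6.20, 6.60 and 6.32 in Control cells. No comparison passed, and array values are compressed at this level. Aldoc, an aldolase, was -0.24 ± 0.08 from Control in CHIR_Forskolin cells (adjusted p = 0.0389), a call lost under array centring at -0.20 with an adjusted p of 0.111 and without any of 5 single arrays. Gpi, Aldoa and Tpi1, for the isomerase, aldolase and triose steps, passed in none of the 6 comparisons.

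In the lower part, which recovers ATP, 1 of 6 genes rose in CHIR_Forskolin cells, 1 rose and 1 fell in CHIR cells, and none passed in Forskolin cells, where 1 did so at an unadjusted p under 0.05. Gapdh, often used as a reference gene, measured 12.15, 12.09 and 12.23 in CHIR_Forskolin cells, 12.13, 12.15 and 12.18 in CHIR cells, 12.09, 12.15 and 12.13 in Forskolin cells, and 12.15, 12.11 and 12.10 in Control cells. The groups overlapped. Its differences from Control were 0.04, 0.03 and 0.00 in CHIR_Forskolin, CHIR and Forskolin cells, and the 95% intervals reached no further than -0.15 and 0.18.

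Eno2, the enolase form typical of neurons, averaged 12.91 ± 0.11 in CHIR_Forskolin cells, 12.74 ± 0.11 in CHIR cells, 12.62 ± 0.09 in Forskolin cells and 12.43 ± 0.06 in Control cells (SD, n = 3 each). It rose by 0.49 ± 0.09 in CHIR_Forskolin cells (adjusted p = 0.000586), and in CHIR cells by 0.31 ± 0.09 (adjusted p = 0.0137), with all 13 probe sets higher and not overlapping in both. Without CHIR replicate 3 the difference in CHIR cells was 0.25 with an adjusted p of 0.0659, and in the brightest probe set it was 0.12 with an adjusted p of 0.289. Pgk1, the first ATP-yielding enzyme, averaged 12.66 ± 0.26 in CHIR cells and 12.97 ± 0.10 in Control cells. Its difference of -0.31 ± 0.11 had an adjusted p of 0.04999, and without CHIR replicate 2 it was -0.16 with an adjusted p of 0.215. Pgam1, Eno1 and Pkm, the mutase, the common enolase and the pyruvate kinase that ends the pathway, passed in no comparison.

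The 6 genes for pyruvate and lactate handling included 1 that rose and 2 that fell in CHIR_Forskolin cells, 1 and 2 in CHIR cells, and 1 and 1 in Forskolin cells. Ldha, which favours making lactate, measured 13.03, 13.07 and 13.00 in CHIR_Forskolin cells, 12.94, 12.90 and 12.79 in CHIR cells, 12.97, 13.03 and 12.95 in Forskolin cells, and 12.99, 12.99 and 12.98 in Control cells. All arrays lay within a narrow range, with CHIR arrays below all others, and no comparison passed. The 95% interval of its difference from Control was -0.11 to 0.19 in CHIR_Forskolin, -0.27 to 0.04 in CHIR and -0.16 to 0.14 in Forskolin cells.

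Ldhb, the heart-type subunit of the same enzyme, rose with CHIR99021. It measured 10.01, 10.15 and 10.33 in CHIR_Forskolin cells, 10.83, 10.77 and 10.60 in CHIR cells, 9.60, 9.56 and 9.63 in Forskolin cells, and 9.62, 10.00 and 9.94 in Control cells. CHIR arrays lay above all others. The difference from Control was 0.88 ± 0.11 in CHIR cells, a ratio of 1.84, with an adjusted p of 2.76e-05 and all 8 probe sets higher without overlap. CHIR_Forskolin lay below CHIR by 0.57 ± 0.11 (adjusted p = 0.00279) and above Forskolin by 0.56 ± 0.11 (adjusted p = 0.00118). Against Control it was 0.31 higher in CHIR_Forskolin cells (adjusted p = 0.0493), a call lost without any of 9 single arrays, at 0.19 with an adjusted p of 0.207 without Control replicate 1. The difference from Forskolin was 0.26 in the brightest probe set alone, with an adjusted p of 0.118.

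Pdk1, a pyruvate dehydrogenase kinase that HIF-1 is known to induce, took opposite directions under the single compounds. It measured 11.06, 11.12 and 11.15 in CHIR_Forskolin cells, 10.28, 10.44 and 10.54 in CHIR cells, 11.64, 11.47 and 11.50 in Forskolin cells, and 11.20, 11.05 and 11.23 in Control cells. CHIR arrays lay below all others and Forskolin arrays above all others, with CHIR_Forskolin and Control overlapping. It fell by 0.74 ± 0.09 in CHIR cells, a ratio of 0.598 (adjusted p = 1.54e-05), and rose by 0.37 ± 0.09 in Forskolin cells (adjusted p = 0.00947). CHIR_Forskolin exceeded CHIR by 0.69 ± 0.09 (adjusted p = 9.07e-05) and differed from Control by -0.05, with a 95% interval of -0.24 to 0.14. With the brightest probe set alone the rise in Forskolin cells was 0.20 with an adjusted p of 0.16.

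Pdk2, a second such kinase, fell where both compounds were given. It measured 9.01, 9.08 and 9.29 in CHIR_Forskolin cells, 9.65, 9.62 and 9.81 in CHIR cells, 9.55, 9.58 and 9.53 in Forskolin cells, and 9.76, 9.73 and 9.88 in Control cells. CHIR_Forskolin arrays lay below all others. The difference was -0.66 ± 0.09 from Control (adjusted p = 5.27e-05), -0.57 from CHIR (adjusted p = 0.000542) and -0.43 from Forskolin (adjusted p = 0.00199). In CHIR cells it was -0.10 and in Forskolin cells -0.24 from Control, and neither passed. The interaction was -0.33 with an adjusted p of 0.168, so a larger effect of the pair than of the sum was not shown.

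Slc16a1, the lactate and pyruvate transporter MCT1, averaged 11.58 ± 0.02 in CHIR_Forskolin cells, 11.72 ± 0.01 in CHIR cells, 11.79 ± 0.03 in Forskolin cells and 12.05 ± 0.03 in Control cells (SD, n = 3 each). It fell in all 3 treatments, by 0.47, 0.33 and 0.26 in that order of groups, and all 6 probe sets were lower without overlap in each. The fall in Forskolin cells had an adjusted p of 0.0144, and of 0.055 without Forskolin replicate 3 and 0.0561 under array centring. Slc16a3, the lactate exporter MCT4 and a known hypoxia target, passed in no comparison. Its difference in Forskolin cells was 0.29, with an adjusted p of 0.119.

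**Figure D3:**
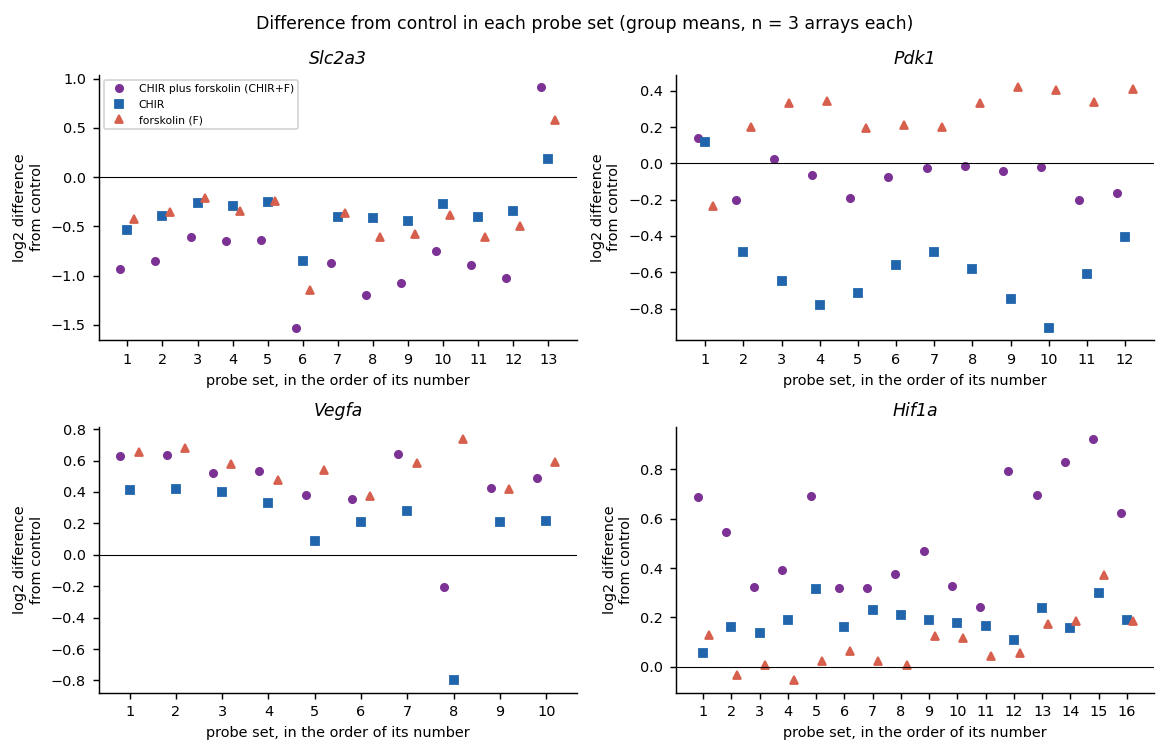
Log2 difference from Control of the group means (n = 3 arrays each) in every probe set of Slc2a3, Pdk1, Vegfa and Hif1a, in CHIR_Forskolin, CHIR and Forskolin cells. Probe set 13 of Slc2a3, 1 of Pdk1 and 8 of Vegfa stand apart from the rest of their gene, and all 16 probe sets of Hif1a lie above 0 in CHIR_Forskolin cells.

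Among the genes of oxygen sensing, Hif1a, the oxygen-regulated subunit of the factor itself, was higher at the RNA level where both compounds were given. It measured 12.91, 12.75 and 12.78 in CHIR_Forskolin cells, 12.44, 12.31 and 12.36 in CHIR cells, 12.33, 12.28 and 12.34 in Forskolin cells, and 12.11, 12.33 and 12.07 in Control cells. CHIR_Forskolin arrays lay above all others, and the other 3 groups overlapped in part. The difference was 0.64 ± 0.08 from Control (adjusted p = 4.91e-05), 0.44 from CHIR (adjusted p = 0.00259) and 0.50 from Forskolin (adjusted p = 0.000424). The single compounds gave 0.20 and 0.14 for CHIR and Forskolin against Control, neither of which passed, and the interaction was 0.30 with an adjusted p of 0.194. With the brightest probe set alone the difference from CHIR was 0.08 (adjusted p = 0.576) and that from Forskolin 0.20 (adjusted p = 0.0544).

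Egln1, the main prolyl hydroxylase for HIF-1alpha, averaged 10.57 ± 0.09 in CHIR_Forskolin cells and 10.26 ± 0.11 in Control cells. It rose by 0.31 ± 0.08 (adjusted p = 0.0103), which was 0.15 with an adjusted p of 0.126 for the brightest probe set. Egln3, a hydroxylase that is itself a hypoxia target, averaged 12.77 ± 0.05 in CHIR_Forskolin cells and 12.98 ± 0.08 in Control cells. Its difference of -0.21 ± 0.07 had an adjusted p of 0.0481 and lost the call without any of 11 of the 12 arrays and in 7 of the 9 other alternatives.

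Adm, which encodes the vasodilator peptide adrenomedullin, rose in every treatment. It measured 10.63, 10.69 and 10.52 in CHIR_Forskolin cells, 10.40, 10.42 and 10.60 in CHIR cells, 10.11, 10.09 and 10.15 in Forskolin cells, and 9.72, 9.68 and 9.56 in Control cells. Control arrays lay below all others, Forskolin arrays came next, and CHIR and CHIR_Forskolin arrays overlapped at the top. The difference from Control was 0.96 ± 0.08 in CHIR_Forskolin cells, a ratio of 1.95 (adjusted p = 7.07e-07). It was 0.82 ± 0.08 in CHIR cells (adjusted p = 2.99e-06) and 0.47 ± 0.08 in Forskolin cells (adjusted p = 0.00125), with all 4 probe sets higher without overlap in each.

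Vegfa, the growth factor for blood vessels, rose with forskolin. It measured 11.76, 11.85 and 11.88 in CHIR_Forskolin cells, 11.45, 11.48 and 11.62 in CHIR cells, 12.16, 12.14 and 12.11 in Forskolin cells, and 11.51, 11.60 and 11.58 in Control cells. Forskolin arrays lay above all others, CHIR_Forskolin arrays came next, and CHIR and Control arrays overlapped. The rise was 0.57 ± 0.07 in Forskolin cells, a ratio of 1.49 (adjusted p = 0.0001), with all 10 probe sets higher without overlap. It was 0.26 ± 0.07 in CHIR_Forskolin cells (adjusted p = 0.0148), with an adjusted p of 0.0501 to 0.0585 on leaving out CHIR_Forskolin replicate 2, CHIR_Forskolin replicate 3 or Control replicate 1.

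The difference of Vegfa between CHIR and Control turned on how its probe sets were combined. The median of the probe sets gave -0.05 (adjusted p = 0.695), but 9 of the 10 probe sets were higher in CHIR cells. The exception, the eighth in order of number, averaged 11.62 in CHIR_Forskolin cells, 11.03 in CHIR cells, 12.56 in Forskolin cells and 11.83 in Control cells. The mean of the probe sets gave 0.18 (adjusted p = 0.0282), the brightest probe set 0.21 (adjusted p = 0.0488), and probe sets centred on their own means, an alternative chosen after seeing the data, 0.27 (adjusted p = 0.00101). Likewise CHIR_Forskolin lay below Forskolin by 0.31 in the median (adjusted p = 0.00529), while these alternatives gave -0.12, 0.00197 and -0.02, with adjusted p-values of 0.121, 0.987 and 0.816.

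Ddit4, which encodes the mTORC1 inhibitor REDD1, rose with forskolin alone. It measured 8.57, 8.94 and 8.70 in CHIR_Forskolin cells, 8.84, 8.78 and 8.88 in CHIR cells, 9.39, 9.42 and 9.27 in Forskolin cells, and 8.84, 8.81 and 8.67 in Control cells. Forskolin arrays lay above all others and the remaining groups overlapped. The rise was 0.59 ± 0.10, a ratio of 1.5 (adjusted p = 0.000713), with all 6 probe sets higher without overlap. With CHIR99021 present the effect of forskolin was -0.10, and the interaction was -0.69 ± 0.13 with an adjusted p of 0.00678. The interaction was -0.27 in the brightest probe set alone, with an adjusted p of 0.344.

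Ndrg1, a stress-responsive gene often used as a marker of low oxygen, averaged 13.39 ± 0.02 in CHIR_Forskolin cells, 13.26 ± 0.02 in CHIR cells, 13.44 ± 0.04 in Forskolin cells and 13.05 ± 0.09 in Control cells (SD, n = 3 each). It rose by 0.34 ± 0.07 in CHIR_Forskolin cells (adjusted p = 0.00202) and by 0.39 ± 0.07 in Forskolin cells (adjusted p = 0.00169), with all 19 probe sets higher without overlap in both. In CHIR cells the rise of 0.21 (adjusted p = 0.0366) lost the call without any of 6 single arrays, at 0.16 with an adjusted p of 0.144 without Control replicate 2. In the brightest probe set alone the differences were 0.17, 0.13 and 0.21 in CHIR_Forskolin, CHIR and Forskolin cells, and none passed. Bnip3, a receptor that targets mitochondria for degradation, averaged 12.53 ± 0.03 in CHIR_Forskolin cells, 12.39 ± 0.17 in CHIR cells, 12.58 ± 0.07 in Forskolin cells and 12.24 ± 0.08 in Control cells. It rose by 0.29 ± 0.09 in CHIR_Forskolin cells (adjusted p = 0.0257) and by 0.34 ± 0.09 in Forskolin cells (adjusted p = 0.0188). Each of these calls was lost on leaving out any of 4 single arrays, with adjusted p-values of 0.0575 to 0.0822, and in the brightest probe set, at 0.29 and 0.31 with adjusted p-values of 0.15 and 0.187.

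HIF-1 binds a core of ACGTG or GCGTG, and the promoters of several of these genes hold it. Promoter sequence from RefSeq (GRCr8) was given for 29 of the 32 members, and the 250 bases before the start were searched for both cores on both strands. ACGTG stood in 13 of the 29 windows, or 44.8%, against 17.6% of 19005 protein-coding genes, and GCGTG in 14, or 48.3%, against 31.7%. The members' windows also had more G and C, with a median of 63.2% against 54.8% over all. CACGTG, the E-box, which contains ACGTG on both strands, was in 6 windows (20.7%, against 6.38%). Of the other motifs searched, the cAMP response element TGACGTCA was in 1 window (3.45%, against 2.03%), its part TGACG in 5 (17.2%, against 21.1%), and CTTTGA, a core bound by the beta-catenin partners of the TCF family, in none, against 12.8%. The following 4 windows are shown because they belong to 2 genes that rose in Forskolin cells with the cores close by (Bnip3, Ddit4), to the kinase that fell in CHIR and rose in Forskolin cells (Pdk1), and to an enzyme that passed in no comparison and still holds several cores (Ldha). They read 5′ to 3′ on the strand of the gene, from GRCr8, and capitals mark ACGTG or GCGTG on either strand.
Bnip3, chr1:203154963-203155212, minus strand: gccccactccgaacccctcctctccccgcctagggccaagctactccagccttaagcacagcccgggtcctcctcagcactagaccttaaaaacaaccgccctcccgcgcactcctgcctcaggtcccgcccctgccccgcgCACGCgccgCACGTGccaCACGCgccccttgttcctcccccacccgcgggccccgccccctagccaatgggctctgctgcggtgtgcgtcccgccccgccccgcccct
Ddit4, chr20:28437038-28437287, minus strand: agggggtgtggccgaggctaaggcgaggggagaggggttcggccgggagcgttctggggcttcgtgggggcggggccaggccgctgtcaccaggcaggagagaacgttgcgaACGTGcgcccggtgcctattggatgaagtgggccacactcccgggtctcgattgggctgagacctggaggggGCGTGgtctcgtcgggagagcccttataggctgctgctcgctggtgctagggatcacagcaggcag
Pdk1, chr3:77113264-77113513, plus strand: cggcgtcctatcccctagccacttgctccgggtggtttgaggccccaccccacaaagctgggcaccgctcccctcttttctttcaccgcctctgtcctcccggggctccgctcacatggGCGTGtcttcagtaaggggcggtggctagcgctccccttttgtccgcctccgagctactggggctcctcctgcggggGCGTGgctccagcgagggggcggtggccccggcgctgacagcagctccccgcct
Ldha, chr1:106507842-106508091, plus strand: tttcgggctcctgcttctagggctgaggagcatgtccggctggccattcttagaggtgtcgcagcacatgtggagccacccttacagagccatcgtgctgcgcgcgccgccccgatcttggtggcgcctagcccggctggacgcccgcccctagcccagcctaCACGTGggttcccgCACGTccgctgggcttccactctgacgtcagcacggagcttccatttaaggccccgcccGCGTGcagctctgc
The windows of Vegfa and Adm, which rose in Forskolin cells too, hold neither core. Those of Slc16a1, which fell in every treatment, and of Pfkl, which fell with CHIR99021, do hold cores. A match is a description of the letters, not a shown binding site, and its absence says only that these letters are not in this window.

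Comparing the pair of compounds with each compound alone separated what each added. CHIR_Forskolin against CHIR, the effect of forskolin in the presence of CHIR99021, gave 6 passing members, against 13.9% of all genes and 22.5% of the brighter ones. With the mean of the probe sets 12 members passed, and with probe sets centred on their own means, an alternative chosen after seeing the data, 11 did. Of the 6, 3 were higher (Pdk1, Hif1a and Vegfa) and 3 lower (Ldhb, Pdk2 and Slc2a3), where 6.53% of all genes were higher and 7.39% lower. The difference of Vegfa was 0.31 with an adjusted p of 0.0105, of 0.0512 without CHIR replicate 1 and of 0.0839 in the brightest probe set. None of the 15 genes of upper and lower glycolysis passed there, although 5 did at an unadjusted p under 0.05. CHIR_Forskolin against Forskolin, the effect of CHIR99021 in the presence of forskolin, gave 16 passing members, 7 higher and 9 lower, against 30.1% of all genes (16.4% higher and 13.7% lower) and 47.7% of the brighter ones. The rises were those of Pfkp, Ldhb, Hif1a, Adm, Hk2, Eno2 and Egln1, between 0.25 and 0.59. The falls were those of Ddit4, Pfkl, Slc2a3, Pdk1, Pdk2, Aldoc, Vegfa, Slc2a1 and Slc16a1, between -0.63 and -0.21. The calls of Slc2a1, Eno2, Slc16a1 and Egln1 in this comparison were each lost without 1 or more single arrays, with adjusted p-values of 0.0511 to 0.13. When the brightest probe set stood for each gene, 7 members passed in this comparison, and the calls of Vegfa, Ldhb and Hif1a were among those lost. The call of Vegfa was also lost with the mean of the probe sets and with probe sets centred on their own means.

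The interaction passed for 2 members, Pfkp above 0 and Ddit4 below, against 6.33% of all genes (3.26% above and 3.08% below) and 9.73% of the brighter ones. Both changed in Forskolin cells, Pfkp by -0.42 and Ddit4 by 0.59, and differed by 0.20 and -0.10 between CHIR_Forskolin and CHIR, neither of which passed. For the other 29 members the interaction lay between -0.33 and 0.37 and did not pass, and the 95% intervals of Pdk1, Pdk2, Adm, Vegfa, Hif1a, Ndrg1, Pgk1 and Pkm did not include 0. With the mean of the probe sets 7 members passed, and with the brightest probe set none did, where 4 had an unadjusted p under 0.05.

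**Figure D4:**
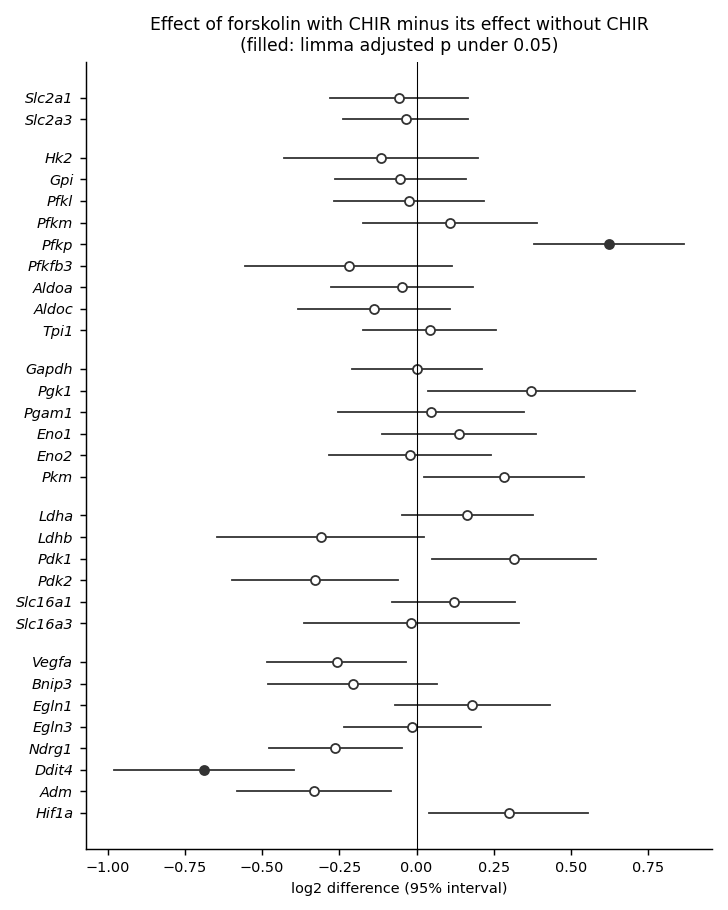
Effect of forskolin with CHIR99021 minus its effect without (horizontal axis, log2 difference with 95% interval) for the 31 measured members, in the same order of roles as the plot against Control. Filled points, Pfkp at 0.62 and Ddit4 at -0.69, passed an adjusted p of 0.05.

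The remaining 10 members, Gpi, Pfkfb3, Aldoa, Tpi1, Gapdh, Pgam1, Eno1, Pkm, Ldha and Slc16a3, passed in none of the 6 comparisons. Their differences lay between -0.24 and 0.29 in the 5 pairwise comparisons, with 95% intervals that reached -0.48 at the lowest and 0.54 at the highest.

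Beyond the members, 24 other genes known to rise under low oxygen were measured of 27 listed. In Forskolin cells 9 rose and 1 fell, with a median difference of 0.23, and in CHIR cells 4 rose and 7 fell, with a median of -0.10. In CHIR_Forskolin cells 4 rose and 6 fell, with a median of 0.01. The share called was 41.7% in CHIR_Forskolin, 45.8% in CHIR and 41.7% in Forskolin cells, beside 29%, 28.2% and 15% of all genes and 45.3%, 43.9% and 23.6% of the brighter ones. Vldlr, a lipoprotein receptor, averaged 7.64 in CHIR_Forskolin, 7.15 in CHIR, 6.41 in Forskolin and 5.77 in Control cells, and all 3 treatments passed against Control, in Forskolin cells with an adjusted p of 0.0231 that was 0.0647 to 0.106 without any of 4 single arrays. The Forskolin and Control means lay below the background reference of 6.45, so these differences are set against a level that cannot be told from background. Car9, a carbonic anhydrase of the cell surface, rose by 0.81 in CHIR_Forskolin cells (adjusted p = 2.46e-05), but by 0.11 with an adjusted p of 0.59 in its brightest probe set. Ankrd37 rose by 0.51 in Forskolin cells (adjusted p = 0.0104, and 0.0513 without Forskolin replicate 1), and Lox, an enzyme that crosslinks collagen, was 0.61 higher there but near background in all groups. Fam162a averaged 9.96 in CHIR_Forskolin, 9.32 in CHIR, 10.02 in Forskolin and 10.10 in Control cells. It fell by 0.78 in CHIR cells (adjusted p = 0.00139), and CHIR_Forskolin exceeded CHIR by 0.63, or by 0.58 with an adjusted p of 0.0509 without CHIR_Forskolin replicate 1. Loxl2, also a collagen-modifying enzyme, fell by 0.61 in CHIR cells (adjusted p = 1.39e-05).

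**Figure D5:**
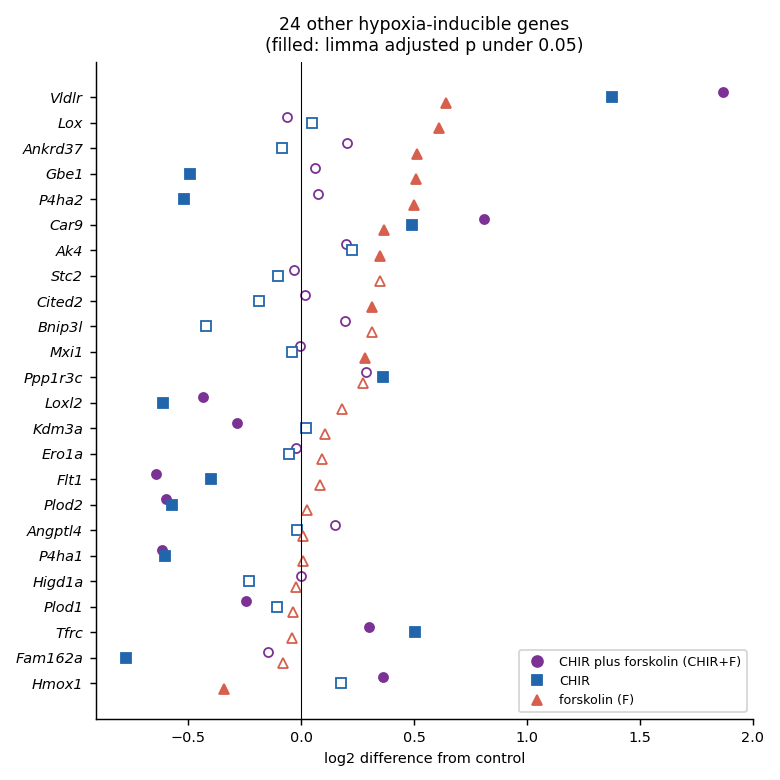
Log2 difference from Control (horizontal axis) of 24 other hypoxia-inducible genes in CHIR_Forskolin, CHIR and Forskolin cells, ordered by the value in Forskolin cells, with filled markers for an adjusted p under 0.05. In Forskolin cells 9 genes are filled to the right of 0 and 1 to the left, and Vldlr, near background in Control cells, reaches 1.87 in CHIR_Forskolin cells.

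Of the 7 genes of the oxygen-sensing machinery outside the members, 2 rose and 2 fell in CHIR_Forskolin cells, 2 rose and 1 fell in CHIR cells, and 1 rose and 2 fell in Forskolin cells. Vhl, the ubiquitin ligase subunit that removes hydroxylated HIF-1alpha, rose by 0.69 in CHIR_Forskolin cells (adjusted p = 0.000157). Arnt2, a partner of HIF alpha subunits, rose by 0.65 in CHIR_Forskolin cells (adjusted p = 4.74e-05) and by 1.14 in CHIR cells (adjusted p = 1.71e-07). In Forskolin cells Arnt2 fell by 0.40 (adjusted p = 0.00538), and by 0.12 with an adjusted p of 0.28 in its brightest probe set.

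Other glucose transporters and enzymes around glycolysis, 20 measured of 24, passed at 3 higher and 3 lower in CHIR_Forskolin cells, 4 and 2 in CHIR cells and 4 and none in Forskolin cells. Only 12 of the 20 lay above the background reference in any group. Of the rises in Forskolin cells, those of Slc2a9 and Slc2a12 were of genes below it in every group. That of Slc2a6 reversed in its brightest probe set. Pfkfb1, a sister of Pfkfb3, rose by 1.18 in CHIR_Forskolin cells and by 1.43 in CHIR cells (adjusted p = 7.33e-06 and 1.01e-06), and Pfkfb4 fell by 0.76 in CHIR_Forskolin cells (adjusted p = 9.11e-05). The transporter gene Slc2a8 fell by 1.10 in CHIR cells (adjusted p = 6.02e-05). In Forskolin cells Slc2a9 rose by 0.57 (adjusted p = 0.00462), with a group mean of 6.32 near background, and by the mean of its probe sets the difference was 0.20 with an adjusted p of 0.0906.

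Of the 12 genes for entry of pyruvate into mitochondria, 5 rose and 3 fell in both CHIR_Forskolin and CHIR cells, and none rose and 3 fell in Forskolin cells. Mpc1, a subunit of the mitochondrial pyruvate carrier, averaged 8.02 in CHIR_Forskolin, 7.47 in CHIR, 5.87 in Forskolin and 6.11 in Control cells, which puts it near background without CHIR99021. It rose by 1.91 in CHIR_Forskolin cells (adjusted p = 6.46e-07) and by 1.36 in CHIR cells (adjusted p = 1.64e-05). Pc, for pyruvate carboxylase, fell by 1.35 and 0.81 in the same groups (adjusted p = 9.92e-07 and 0.000121), and Pdp1, the phosphatase that opposes the Pdk kinases, fell by 0.72 and 0.91. Pdha1, the catalytic subunit of pyruvate dehydrogenase, fell by 0.58 in Forskolin cells (adjusted p = 0.000179).

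In the list for the citric acid cycle, with 16 of 18 genes measured, 5 rose and 1 fell in CHIR_Forskolin cells, 4 rose in CHIR cells, and 1 rose and 1 fell in Forskolin cells. Mdh1, the form of the cytosol, is 1 of the rises in each group. It is the only one in Forskolin cells, at 0.43 (adjusted p = 0.0181). Idh3a, of isocitrate dehydrogenase, rose by 0.90 in CHIR_Forskolin cells and by 0.52 in CHIR cells (adjusted p = 4.54e-07 and 8.83e-05), and Mdh1, a malate dehydrogenase of the cytosol, by 0.83 and 0.70. Of 7 gluconeogenic genes, 4 of them above the background reference in any group, 3 rose and 1 fell in both CHIR_Forskolin and CHIR cells. None of the 7 passed in Forskolin cells by limma, where 1 was higher and 1 lower at an unadjusted p under 0.05. The gene that fell with CHIR99021 was the same in both groups and lay below the background reference throughout. Pck2, the mitochondrial form of the enzyme that makes phosphoenolpyruvate, rose by 1.04 in CHIR cells (adjusted p = 0.000157), and G6pc3, a glucose-6-phosphatase, rose by 0.80 in CHIR_Forskolin cells (adjusted p = 1.33e-05).

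In the pentose phosphate pathway, with 6 of 8 genes measured, 2 rose and 3 fell in CHIR_Forskolin cells, 1 rose and 2 fell in CHIR cells, and 1 fell in Forskolin cells. H6pd, which starts the pathway inside the endoplasmic reticulum, fell by 1.39 in CHIR_Forskolin cells and by 1.43 in CHIR cells (adjusted p = 1.63e-07 and 1.07e-07). Rpia, a pentose isomerase, fell by 1.24 and 0.88 in these groups (adjusted p = 9.36e-06 and 0.00019).

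Of 8 measured transcriptional regulators of glucose use, none rose and 4 fell in CHIR_Forskolin cells, 1 fell in CHIR cells and 2 fell in Forskolin cells. Mycn averaged 9.60 in CHIR_Forskolin, 9.90 in CHIR, 8.96 in Forskolin and 10.05 in Control cells, and its fall of 1.09 in Forskolin cells had an adjusted p of 1.76e-05. Myc averaged 5.39 in CHIR_Forskolin, 5.16 in CHIR, 5.04 in Forskolin and 6.63 in Control cells, so that the 3 treated groups lay below the background reference and the Control cells just above it. Its falls of 1.23, 1.47 and 1.58 all passed, but in its brightest probe set the differences were -0.16, -0.07 and -0.04 and none passed. Over the 7 lists from oxygen sensing to these regulators, the share called ran between 30.0% and 83.3% in CHIR_Forskolin cells. It ran between 12.5% and 66.7% in CHIR and between 0% and 42.9% in Forskolin cells. Of all genes 29%, 28.2% and 15% passed in the same order of groups, and of the brighter ones 45.3%, 43.9% and 23.6%. Lists of 6 to 20 genes give such shares little precision, so the counts are by themselves no result about these lists.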

How the data were processed

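The authors deposited 1 table of log2 values for 12 arrays and 211195 exon-level probe sets. Per the submitters' processing notes the tools were RMA, which corrects background, normalises between arrays and summarises probes, and Partek. Versions, options and genome build: not given in the sources used here. No label names the log base, and log2 was inferred from the size of the values. RMA values are compressed near background, and no detection call was used.

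The platform's probe annotation gave 172924 probe sets 1 gene symbol, 1661 several (left out) and 36610 none (not used here). Symbols were updated through the RefSeq gene table of GRCr8, used for names alone: 3662 of 16582 gene symbols were updated and 55 kept as annotated. A gene's value is the median of its probe sets, which can hide a change in part of a gene. Samples were grouped by their titles. The model, run in limma 3.58.1 under R 4.3.3, had 4 group means over 12 arrays with eBayes, without trend or block. Tests are two-sided, with Benjamini-Hochberg adjustment over all genes of each of 6 comparisons and a threshold of 0.05. The script was tested on simulated data. Signed differences are the group named first minus the group named second.

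The members and the 8 lists of other genes were chosen with earlier results of these data known. The rule for names was every member, with array values for those past the threshold by at least 0.5 on the log2 scale in any comparison and for 8 that the rule names, and of each list up to 3 genes per comparison with the largest passing differences. Alternatives were the mean or brightest probe set, array centring, brighter genes only, trend with robust eBayes, array weights, a replicate block, only the groups compared, leaving out each array, and probe sets centred on their own means. The number of arrays, 3 per group, limits the precision.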

Additional observations from a re-analysis of the deposited data

Results flagged for a closer look

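For 10 genes the interaction term of the limma fit, which compares the effect of forskolin with and without CHIR99021, had an adjusted p under 0.05 over all genes. The differences below are those effects, with CHIR99021 minus without, on the log2 scale. Among the members, Pfkp gave 0.62 (0.20 with and -0.42 without CHIR99021) and Ddit4 gave -0.69 (-0.10 with and 0.59 without). Among the hexose transporters Slc2a9 gave -0.75 (-0.18 with and 0.57 without) and Slc2a10 gave -0.60 (-0.53 with and 0.07 without). The ADP-dependent glucokinase gene Adpgk gave -0.59 (-0.23 with and 0.36 without), with an adjusted p of 0.0446 that was 0.0602 with replicate number as a block and 0.0659 to 0.107 without any of 10 single arrays. Pdha1 of pyruvate dehydrogenase gave 0.59 (0.01 with and -0.58 without). Of the hypoxia-inducible genes, Lox gave -0.72 (-0.11 with and 0.61 without) and Hmox1 gave 0.53 (0.19 with and -0.34 without). Of the regulators, Myc gave 1.82 (0.23 with and -1.58 without) and Mycn gave 0.79 (-0.30 with and -1.09 without). Lox, Slc2a9 and Myc lay near the background reference in the groups compared, except Myc in Control cells. With the brightest probe set alone, 8 of the 10 no longer passed: Pfkp gave 0.55 (adjusted p = 0.0967), Ddit4 gave -0.27 (0.344), Slc2a9 gave 0.23 (0.916), Slc2a10 gave -0.51 (0.06), Adpgk gave -0.20 (0.506), Lox gave -0.65 (0.3), Myc gave -0.05 (0.954) and Mycn gave 0.47 (0.0645). With the mean of the probe sets Slc2a9 gave -0.19 with an adjusted p of 0.365. With probe sets centred on their own means, chosen after seeing the data, Slc2a9 gave -0.19 (0.25) and Adpgk -0.35 (0.173). Groups of 3 arrays are too small for a test of single outlying arrays.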

How the results depend on the processing

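Of 6405 values of single genes under the alternatives, 6017 stayed on their side of the threshold, 310 of the passing ones no longer passed, 70 newly passed and 8 reversed. The 6017 include values that passed neither before nor after the change, so they do not measure how many calls held. With the brightest probe set in place of the median, Fh in CHIR_Forskolin against Control gave -0.0194, Slc2a6 in Forskolin against Control gave -0.0113, Vegfa in CHIR_Forskolin against Forskolin gave 0.00197, the interaction of Slc2a9 was 0.23 and that of Myc was -0.053. Vegfa in CHIR against Control was 0.18 with the mean of the probe sets, 0.21 with the brightest and 0.27 with probe sets centred on their own means, the alternative chosen after seeing the data. The number of passing members moved to 10 with the brightest probe set in CHIR_Forskolin against Control and to 7 against Forskolin. Against CHIR it was 12 with the mean and 11 with centred probe sets. For the interaction it was 7 with the mean, 0 with the brightest and 5 with centred probe sets, and over all genes 1870, 631 and 1775 in place of 1050. The cause of these moves was not tested, beyond that each changes how probe sets are combined.

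On leaving out 1 array at a time the passing members numbered 11 to 16 in CHIR_Forskolin, 8 to 11 in CHIR and 7 to 10 in Forskolin cells against Control, 5 to 7 for CHIR_Forskolin against CHIR, 12 to 16 against Forskolin and 2 throughout for the interaction. Centring each array on its median changed the split of all genes in Forskolin cells to 1201 higher and 1166 lower, from 1009 and 1485, and in CHIR_Forskolin cells to 2789 and 2147, from 2376 and 2436. The members' split was then 6 higher and 2 lower in Forskolin and 10 and 4 in CHIR_Forskolin cells. The replicate numbers share no stated culture or day. Deviations of same-numbered arrays correlated at -0.196 to 0.156, with 1 of 18 pairs over 0.1, and 3 of 12 arrays correlated best with their own number. With replicate number as a block, 12, 9 and 9 members passed in CHIR_Forskolin, CHIR and Forskolin cells against Control, 7 for CHIR_Forskolin against CHIR, 16 against Forskolin and 2 for the interaction. Signal near background limits Pfkfb3, Mpc1 without CHIR99021, Vldlr without CHIR99021, Lox, Slc2a9, Slc2a12, Myc and the gluconeogenic gene that fell with CHIR99021.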

Other observations

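Probe sets that the annotation assigned to Gapdh together with pseudogene symbols were left out of the gene values. There were 7 of them, and their median on each array averaged 12.91 in CHIR_Forskolin, 12.87 in CHIR, 12.97 in Forskolin and 12.88 in Control cells. The Forskolin arrays, at 12.946 to 12.976, lay above every other array, but only just above the highest CHIR_Forskolin array at 12.943. The other groups overlapped, and no test was run on these probe sets. For Pkm, whose gene value passed in no comparison, probe sets were singled out after their values were seen, and 1 of low signal averaged 7.54 ± 0.22 in CHIR_Forskolin, 7.10 ± 0.48 in CHIR, 6.89 ± 0.47 in Forskolin and 6.83 ± 0.21 in Control cells (SD, n = 3 each), while a brighter one averaged 13.64 ± 0.05, 13.68 ± 0.08, 13.68 ± 0.03 and 13.72 ± 0.04 in the same groups.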
